A study of Mus musculus with 8 samples.

Results

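The genes described here make the proteins that splice, cleave, polyadenylate, export and, where these steps fail, degrade messenger RNA in the nucleus. They were followed in newly made RNA of mouse embryonic stem cells in which Ythdc1 can be deleted; its product is a nuclear protein that binds N6-methyladenosine (m6A) in RNA. The 42 genes were chosen by name and fall into 4 roles. SR proteins and their regulators are represented by 14 genes, 3′ end processing by 16, export by 7 and nuclear exosome targeting by 5. All 42 were found among the 38971 entries of the table. All 42 also passed the filter on low values, which asked for 10 or more in any 2 of the 8 libraries and kept 20628 genes for testing.

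SR proteins bind exons through RNA recognition motifs and recruit spliceosome parts through arginine- and serine-rich tails, whose phosphorylation by the Clk kinases sets where they act. The 3′ end machinery reads the polyadenylation signal, cuts the transcript and adds the poly(A) tail, after which the Nxf1 and Nxt1 heterodimer carries the transcript through the nuclear pore. Transcripts that are not exported are handed to the nuclear exosome by adaptor complexes. YTHDC1 is known to bind several of these proteins: it recruits SRSF3, limits the access of SRSF10 to RNA and contacts CPSF6, and SRSF3 and SRSF7 are also adaptors for NXF1.

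The assay, 4sUDRB-seq, holds RNA polymerase II near promoters with DRB, releases it by washing, and tags the RNA made next with 4-thiouridine (4sU), which is then biotinylated and purified. The cells of every group were male embryonic stem cells of 129 mice with the genotype Ythdc1_cKO, grown without feeder cells in serum and LIF, and every group received 100 μM DRB for 3 h. Beforehand they had been kept for 4 days in 1 μg/ml 4-hydroxytamoxifen (4OHT), the compound used to induce Cre recombinase, or in its solvent DMSO, and they were then labelled with 1 mM 4sU for 0 or 8 min. This gave 4 groups of 2 libraries: DMSO and 4OHT at 0 min, and DMSO and 4OHT at 8 min. What supplies the recombinase, which bases of Ythdc1 are removed and whether a line is a single clone are not stated. No cells without the conditional alleles were treated with 4OHT among the libraries used here, so deletion and the compound itself cannot be told apart. A label of 0 min leaves no time for tagging, so those libraries may hold RNA carried over through purification.

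Depth was 46.3 M to 61.4 M reads per library without labelling time and 93.1 M to 134 M with 8 min (M, mega). By their titles the 0 min libraries came from embryonic stem cell line 1 and the 8 min libraries from line 2, but the table's column names hold a 1 and a 2 in every group. A column was thus matched to a group and to no single sample. Below, "number 1" and "number 2" are the columns' own, and labelling time and cell line may differ together. Nothing says that libraries of a group came from separate cultures, so p-values rest on a spread between libraries that may be technical. For each gene, limma takes most of this spread from other genes of similar level. All 9 embryonic stem cell markers exceeded 10 in every library. At 8 min their summed value was 6431 and 6910 with DMSO but 5717 and 5728 with 4OHT. The markers did not move alike. Nanog read 217 and 208 with DMSO and 116 and 98.9 with 4OHT, while Sox2 read 321 and 302 against 414 and 446. Pou5f1, with 262 and 186 against 227 and 226, overlapped between groups. The summed value of 6 markers of 2-cell-like cells rarely found in such cultures ran from 14.5 to 15.0 with DMSO, where Tcstv1 and Tcstv3 were at 0, and from 171 to 177 with 4OHT. That of 8 fibroblast markers ran from 69.7 to 84.5 with DMSO and from 37.7 to 65.0 with 4OHT. Primitive endoderm markers (6 genes, Foxa2 at 0 in both 4OHT libraries) summed to 55.6 to 67.9 and 69.5 to 74.9, and trophoblast markers (6 genes) to 95.7 to 102 and 88.2 to 88.7, with DMSO and 4OHT respectively. The part of these cell states in the results was not tested.

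Ythdc1 itself was examined first, since its level bears on the labels. Its scaled value at 8 min was 2939 and 3592 in the DMSO libraries and 2041 and 2466 in the 4OHT libraries. A scaled value is the deposited value divided by a factor for each library (median of ratios to the gene's geometric mean), so that a difference is read against the other genes of the same libraries. The 4OHT libraries were lower without overlap, by a log2 fold change of -0.53 ± 0.13 (SE, 2 against 2 libraries; limma adjusted p = 0.00255). Without 4OHT number 1 it was -0.40 (adjusted p = 0.169), and it passed without each other library. At 0 min the log2 fold change was 0.24 with an adjusted p of 1. A row that sums reads over a whole gene includes bases outside the deleted part, so it is only a partial check of the deletion.

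The first comparison asked how transcription of these genes after DRB removal differed between cells with and without 4OHT, at 8 min of labelling. Of the 42 genes, 10 were lower with 4OHT and 1, Papola, was higher, while 31 did not pass the test at an adjusted p of 0.05. Over all tested genes 16.7% were called lower and 18.6% higher. The lower genes were Srsf1, Srsf2, Srsf10 and Srsf11 among SR proteins, Cpsf6, Cpsf7 and Pabpn1 in 3′ end processing, Nxf1 and Nxt1 in export, and Exosc10 in exosome targeting. The median log2 fold change was -0.17 over the 42 genes, between -0.59 for Srsf10 and 0.39 for Papola, and 30 of the 42 lay below the median gene. Over all genes the median was -0.00097, with quartiles at -0.32 and 0.34.

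These differences are relative to other genes. In the deposited values, before scaling, the median gene was higher with 4OHT by 1.43 on the log2 scale, and there 0 of the 42 genes were lower by limma (0 at an unadjusted p under 0.05) and 16 higher, against 0.15% and 59.6% of all genes. With spike-in scaling, and in limma fits of all 8 libraries, without the low-value filter or without a trend of the variance, no gene of the 42 was called in either direction at 8 min (lower and higher at an unadjusted p under 0.05: 0 and 0, 1 and 0, 7 and 2, and 6 and 1, in that order). Of all genes, those fits called 0.0194%, 0.141%, 0% and 9.96% lower and 0.0291%, 0.0097%, 0% and 10.8% higher. At 8 min the spike-ins held 30330 and 62724 reads with DMSO (depth 112 M and 93.1 M) and 48836 and 51734 with 4OHT. Spike-in scaling thus set the DMSO libraries apart from each other over genes in general, so few genes could be called. Its lack of calls does not show that the 42 genes were unchanged. edgeR and DESeq2 on the recovered reads each called the same 10 lower genes and Papola, against 16.4% and 16.5% of all genes lower and 18% higher by either. With the column number as a replicate block 11 were lower, Fip1l1 being added, and 1 was higher, against 19.1% and 20.9% of all genes. Leaving out single libraries changed the number of lower calls to 15 without DMSO number 1 (15.9% of all genes), 3 without DMSO number 2 (15%), 2 without 4OHT number 1 (9.71%) and 4 without 4OHT number 2 (12.2%). In such fits the remaining library is assumed to vary like the other group. In bulk RNA, fewer cells of a type and less RNA per cell cannot be told apart.

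**Figure D1:**
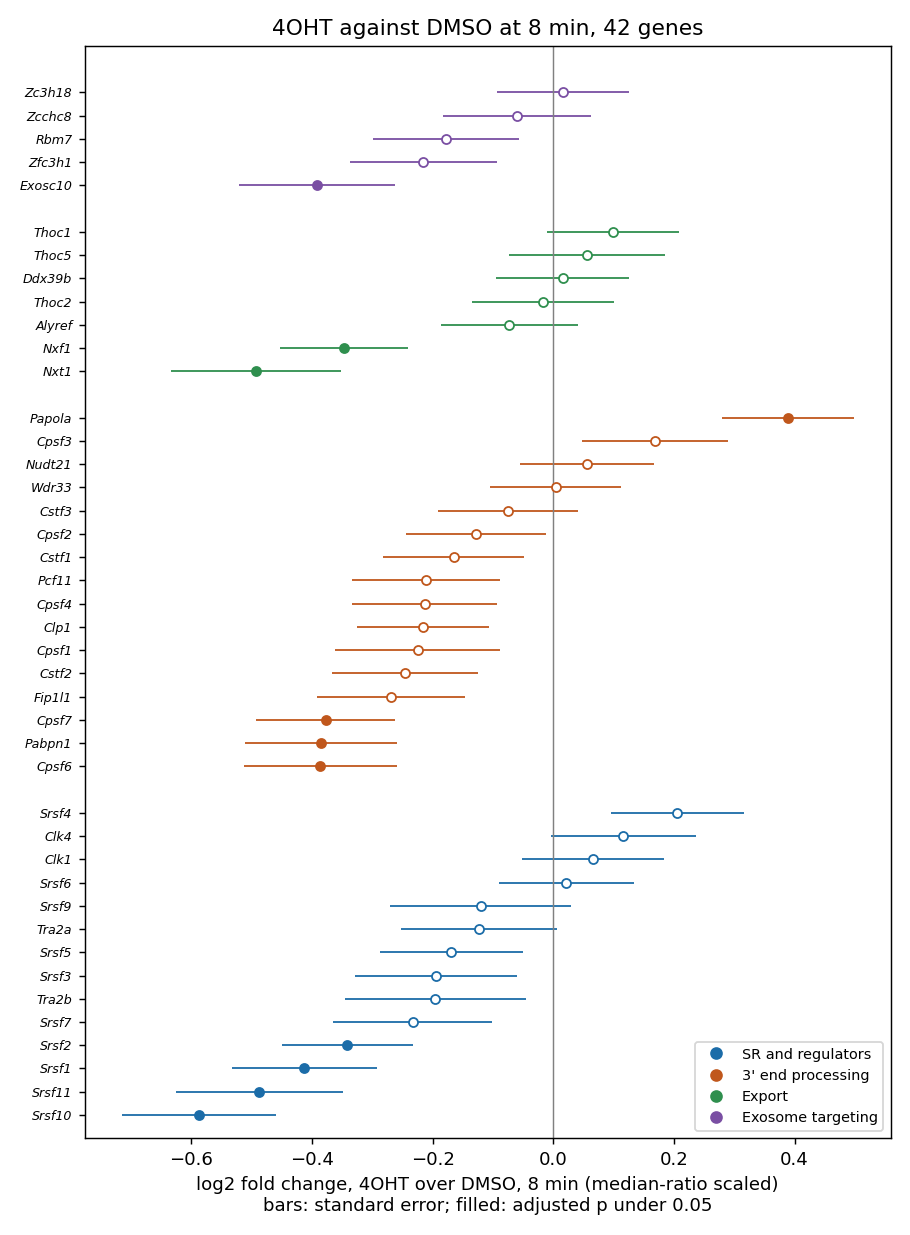
Log2 fold change of 4OHT over DMSO at 8 min (x axis, median-ratio scaled values) for the 42 genes, ordered within 4 roles. Points are limma estimates from 2 against 2 libraries, bars are standard errors, and filled points passed an adjusted p of 0.05; 10 filled points lie left of 0 and 1, Papola at 0.39, lies right of it.

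Among the 14 SR proteins and regulators, 4 fell with 4OHT and 10 did not pass, with a median log2 fold change of -0.18. Srsf10, an SR-like protein that represses splicing when dephosphorylated, had scaled values of 3374 and 3829 with DMSO and 2157 and 2651 with 4OHT. Both 4OHT libraries were below both DMSO libraries, 0.665 times their level, with a log2 fold change of -0.59 ± 0.13 (SE; limma adjusted p = 0.0010). It was the largest decrease of the 42 genes. Without 4OHT number 1 it was -0.44 with an adjusted p of 0.134, and it passed without each other library.

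Srsf11, an SR-related protein, had scaled values of 2099 and 2862 with DMSO and 1551 and 1970 with 4OHT (log2 fold change -0.49, limma adjusted p = 0.0085). The groups were apart by little, since the higher 4OHT library came within reach of the lower DMSO library. Srsf1, the founding SR protein and a factor in 5′ splice site choice, read 2246 and 2665 with DMSO and 1733 and 1948 with 4OHT (-0.41, adjusted p = 0.010). Srsf2, which marks exonic enhancers, read 1409 and 1320 with DMSO and 1106 and 1047 with 4OHT (-0.34, adjusted p = 0.0172). In each of these genes both 4OHT libraries lay below both DMSO libraries. Srsf11 was at -0.26 (adjusted p = 0.0859) without DMSO number 2, -0.32 (0.267) without 4OHT number 1 and -0.71 without DMSO number 1. Srsf1 did not pass without DMSO number 2 (-0.29) or 4OHT number 1 (-0.33), and Srsf2 passed only without DMSO number 2 among the leave-outs (-0.39). Reads of Srsf2 may include those of Mfsd11, which overlaps it, since the strand counted is not stated.

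Srsf3 and Srsf7, adaptors of export, did not pass. Srsf3 read 5232 and 5987 with DMSO and 5053 and 4733 with 4OHT, a log2 fold change of -0.19 (limma adjusted p = 0.274). Srsf7 read 4517 and 5329 with DMSO and 4079 and 4271 with 4OHT, a log2 fold change of -0.23 (adjusted p = 0.176). In both genes the 4OHT libraries were the lower ones without overlap. Of the 31 genes that did not pass, 15 had groups without overlap, in either direction, so this alone does not show a decrease. Neither difference could be told from the spread between libraries, which limma takes in part from other genes. Srsf6 lay nearest to no change, with 1329 and 1491 against 1481 and 1379. Its log2 fold change was 0.02, and the groups overlapped. Of the others, Tra2b (-0.20), Srsf5 (-0.17), Tra2a (-0.12) and Srsf9 (-0.12) had log2 fold changes below 0, and the kinases Clk1 (0.07) and Clk4 (0.12) and the SR protein Srsf4 (0.21, adjusted p = 0.153) above 0.

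**Figure D2:**
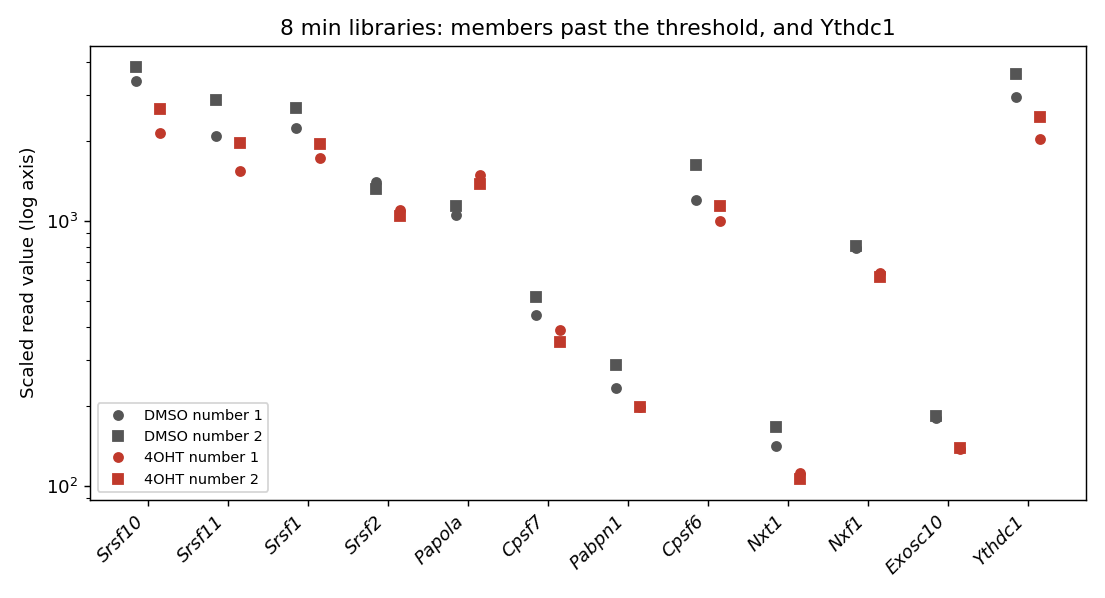
Scaled read value in each of the 4 libraries labelled for 8 min (y axis, log scale) for the 11 genes that passed the test and for Ythdc1. Grey marks DMSO and red 4OHT, circles are number 1 and squares number 2; in Papola the red points lie above the grey ones and in the other genes below.

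In 3′ end processing, 3 of 16 genes fell, 1 rose and 12 did not pass, with a median of -0.21. Cleavage factor I binds UGUA upstream of the cleavage site as a tetramer of Nudt21 with Cpsf6 or Cpsf7. Of its genes, Cpsf6 and Cpsf7 passed and Nudt21 did not, and whether these genes differ in their change was not tested. Cpsf6 read 1200 and 1624 with DMSO and 999 and 1143 with 4OHT, a log2 fold change of -0.39 ± 0.13 (limma adjusted p = 0.0212). Cpsf7 read 444 and 516 with DMSO and 388 and 350 with 4OHT, a log2 fold change of -0.38 ± 0.12 (adjusted p = 0.0138). In both, the 4OHT libraries were lower without overlap. Nudt21 read 1248 and 1410 with DMSO and 1408 and 1350 with 4OHT, where the groups overlapped, and its log2 fold change was 0.06 (adjusted p = 0.736). Cpsf6 was at -0.17 (adjusted p = 0.316) without DMSO number 2, -0.29 (0.247) without 4OHT number 1 and -0.61 without DMSO number 1. Cpsf7 did not pass without DMSO number 2 (-0.27) or 4OHT number 2 (-0.30). Tmem216 overlaps Cpsf7 in the annotation, so its reads may enter that row.

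The tail-forming step held the gene that rose. Papola encodes the canonical nuclear poly(A) polymerase and read 1056 and 1135 with DMSO and 1486 and 1383 with 4OHT. Both 4OHT libraries were above both DMSO libraries, 1.31 times their level, with a log2 fold change of 0.39 ± 0.11 (SE; limma adjusted p = 0.0079). Pabpn1, the nuclear poly(A)-binding protein that stimulates the polymerase and limits tail length, went the other way. It read 235 and 287 with DMSO and 199 and 198 with 4OHT, without overlap, a log2 fold change of -0.39 ± 0.13 (adjusted p = 0.0204). Pabpn1 was at -0.24 (adjusted p = 0.227) without DMSO number 2 and passed only without DMSO number 1 among the leave-outs (-0.53), while Papola did not pass without 4OHT number 1 (0.34, adjusted p = 0.137).

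None of the subunits of the complexes that recognise the polyadenylation signal and cut there passed. In CPSF, the values were -0.22 for Cpsf1, -0.13 for Cpsf2, 0.17 for the endonuclease Cpsf3, -0.21 for Cpsf4 and -0.27 for Fip1l1 (limma adjusted p between 0.0914, for Fip1l1, and 0.417, for Cpsf2). Wdr33, which binds the AAUAAA signal with Cpsf4, read 816 and 921 with DMSO and 874 and 865 with 4OHT. Its log2 fold change of 0.0038 was the nearest to 0 of the 42 genes. In CstF, which binds downstream of the cut, the values were -0.17 for Cstf1, -0.25 for Cstf2 and -0.08 for Cstf3, and in cleavage factor II -0.21 for Pcf11 and -0.22 for Clp1.

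In export, 2 of 7 genes fell and 5 did not pass, with a median of -0.02, and both lower genes encode the nuclear pore receptor. Nxf1, the subunit that binds RNA and nucleoporins, read 792 and 803 with DMSO and 637 and 616 with 4OHT, a log2 fold change of -0.35 ± 0.11 (limma adjusted p = 0.0139). Nxt1, its partner subunit, read 142 and 167 with DMSO and 112 and 106 with 4OHT, a log2 fold change of -0.49 ± 0.14 (adjusted p = 0.0089). In both the 4OHT libraries lay below the DMSO libraries without overlap. Nxf1 did not pass without 4OHT number 1 (-0.37) or number 2 (-0.32), nor Nxt1 without DMSO number 2 (-0.37) or 4OHT number 2 (-0.46). Of the TREX complex, which loads Nxf1 on spliced RNA, none of the 5 genes among the 42 passed. Alyref, its adaptor, read 422 and 373 with DMSO and 381 and 373 with 4OHT (-0.07, adjusted p = 0.653), and Ddx39b, its helicase, read 480 and 527 against 508 and 509 (0.02). The groups overlapped in both. The THO subunits had log2 fold changes of 0.10 (Thoc1), -0.02 (Thoc2) and 0.06 (Thoc5).

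In exosome targeting, 1 of 5 genes fell and 4 did not pass, with a median of -0.18. Exosc10, the nuclear 3′ to 5′ exoribonuclease of the exosome, read 180 and 185 with DMSO but 138 and 140 with 4OHT. The groups were far apart for their spread, with a log2 fold change of -0.39 ± 0.13 (limma adjusted p = 0.0212). Exosc10 passed only without DMSO number 1 among the leave-outs, with values from -0.41 to -0.38. The adaptors did not pass: Zfc3h1, the scaffold of the poly(A) tail exosome targeting connection, was at -0.22 (adjusted p = 0.177). Rbm7 and Zcchc8 of the nuclear exosome targeting complex were at -0.18 and -0.06. Zc3h18, which links the cap-binding complex to them, read 681 and 672 with DMSO and 725 and 646 with 4OHT, groups that overlapped around a log2 fold change of 0.02.

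Ratios of reads between genes of the same library do not depend on how libraries are scaled. The pairs below were chosen after the values were seen and are given with no test, and only the change of a ratio between libraries is read, since its size also reflects the lengths of both genes. Reads of Cpsf6 per read of Nudt21 came to 0.962 and 1.15 in DMSO libraries and 0.710 and 0.846 in 4OHT libraries. For Cpsf7 per Nudt21 they were 0.356 and 0.366 against 0.275 and 0.259. Both large subunits of cleavage factor I were lower beside Nudt21 in both 4OHT libraries. Papola per Pabpn1 gave 4.49 and 3.96 with DMSO and 7.47 and 6.97 with 4OHT, a difference of 0.78 on the log2 scale. Srsf10 per Srsf4 gave 3.83 and 3.81 with DMSO and 2.02 and 2.41 with 4OHT, a difference of -0.79. In each pair the DMSO and 4OHT libraries did not overlap under any scaling of libraries. Because the pairs were picked on these values, the lack of overlap describes them and is no further evidence.

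In export, Nxf1 per Ddx39b gave 1.65 and 1.52 with DMSO and 1.25 and 1.21 with 4OHT, and Nxt1 per Ddx39b gave 0.295 and 0.318 against 0.220 and 0.209. Both receptor genes were thus lower beside Ddx39b in both 4OHT libraries. Nxt1 per Nxf1 moved less, from 0.179 and 0.208 to 0.176 and 0.173. Exosc10 per Zc3h18 gave 0.265 and 0.275 with DMSO and 0.191 and 0.216 with 4OHT, again without overlap.

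**Figure D3:**
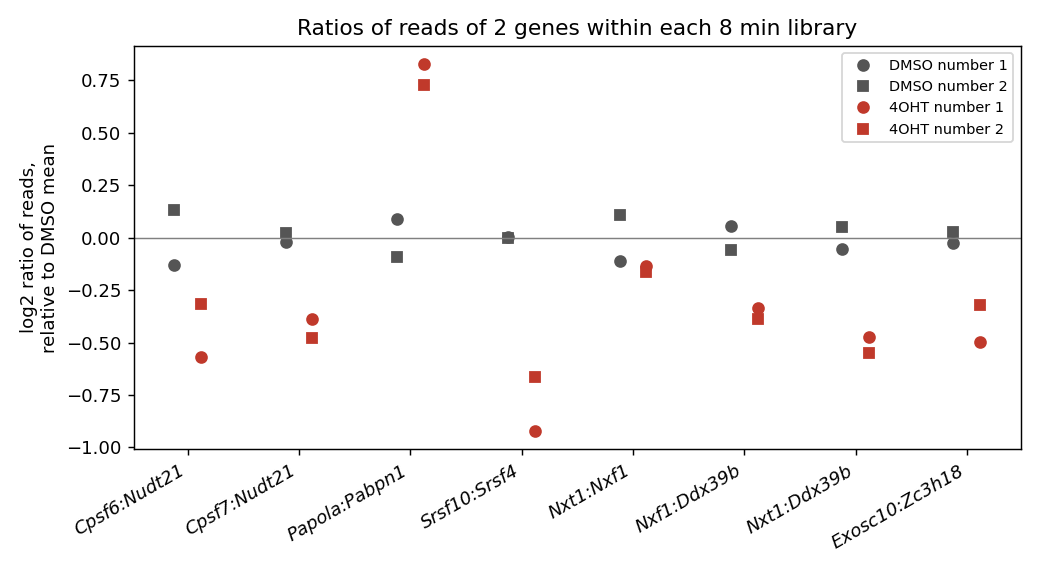
Log2 ratio of the reads of 2 genes within each 8 min library, less the mean of the DMSO libraries (y axis), for 8 gene pairs. Grey marks DMSO, red 4OHT, circles number 1 and squares number 2; Papola per Pabpn1 is higher with 4OHT by 0.78 and the other ratios are lower, least so Nxt1 per Nxf1 at -0.15.

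Other genes of the same pathways were tested in the same fit, which called 18.6% of all genes higher and 16.7% lower. Of 30 other SR-related and splicing genes, 3 rose, 10 fell and 17 did not pass, with a median of -0.23. The genes of smallest p were Hnrnpk (an hnRNP protein that binds C-rich RNA; -0.61, limma adjusted p = 0.00060), Srpk1 (the cytoplasmic SR protein kinase; -0.52, adjusted p = 0.00081) and Sfswap (a splicing regulator; 0.52, adjusted p = 0.0010). Of 11 other 3′ end genes measured, Papolg, a further nuclear poly(A) polymerase, rose and 10 did not pass, with a median of 0.05. Papolg read 197 and 197 with DMSO and 301 and 345 with 4OHT (0.71, limma adjusted p = 8.4e-05), the same direction as Papola. Next by p came Scaf8 (0.27) and Cstf2t (-0.29), which did not pass.

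Of 21 other export genes measured, 5 rose, 3 fell and 13 did not pass, with a median of -0.04. The shares of all genes, here and for the exosome genes below, were again 18.6% higher and 16.7% lower. Nxt2, the paralog of Nxt1, read 124 and 121 with DMSO and 225 and 255 with 4OHT, a log2 fold change of 0.96 (limma adjusted p = 4.4e-06). It is the opposite direction to Nxt1. Mcm3ap, the scaffold of the TREX-2 complex at the pore, rose by 0.54 (adjusted p = 0.00057), and Zc3h11a, a TREX-associated protein, was at -0.47 (adjusted p = 0.0032). Of 16 other exosome genes measured, 1 rose, 3 fell and 12 did not pass, with a median of -0.12. The core ring subunit Exosc7 read 322 and 310 with DMSO and 574 and 474 with 4OHT (0.72, adjusted p = 4.7e-05), while the cap subunits Exosc3 (-0.44, adjusted p = 0.0172) and Exosc1 (-0.32, adjusted p = 0.0270) and the ring subunit Exosc9 (-0.32, adjusted p = 0.0280) were lower. Ring subunits thus lay on both sides.

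Comparing 8 with 0 min in each treatment asks how much of each gene's RNA in the library was gained after DRB removal. Scaling was repeated for each such pair of groups, so scaled values differ from those above. With DMSO, 30 of the 42 genes rose and 12 did not pass, while 30.1% of all genes rose and 26.1% fell. None of the 42 fell by limma (0 at an unadjusted p under 0.05; 0 by edgeR and by DESeq2). The median log2 change was 1.37 over the 42 genes and 0.08 over all genes. With 4OHT, 24 rose, 1 fell and 17 did not pass, against 27.2% and 25.2% of all genes, with medians of 1.05 and 0.09. Of the SR proteins and regulators 13 of 14 rose with DMSO and 11 with 4OHT, of the 3′ end genes 9 of 16 and 7, of the export genes 4 of 7 and 3, and of the exosome genes 4 of 5 and 3. On the deposited scale 37 of the 42 rose with DMSO and 42 with 4OHT, against 48.8% and 69.2% of all genes, and 0 fell (0 and 0 at an unadjusted p under 0.05), against 2.43% and 0.591%.

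Without DMSO 8 min number 1 or number 2 limma called none of the 42 genes and 0% of all genes with DMSO (25 and 22 of the 42 were higher at an unadjusted p under 0.05), and without either 4OHT 8 min library likewise with 4OHT (16 and 16). The spread in those fits comes from the 0 min libraries alone. The median change of the 42 genes moved little, to 1.49 and 1.27 with DMSO and to 1.11 and 0.95 with 4OHT. Without a 0 min library 31 or 33 rose with DMSO, against 40.2% and 39.3% of all genes, and 31 or 30 with 4OHT, against 41.1% and 41.2%. The median difference between libraries of a group was larger at 0 min (0.53 and 0.58 on the log2 scale over all genes) than at 8 min (0.19 and 0.16), with DMSO and 4OHT respectively.

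Srsf7 had the largest rise in both treatments, from 116 and 79.8 at 0 min to 1741 and 2087 at 8 min with DMSO, and from 210 and 149 to 2802 and 2997 with 4OHT. The log2 changes were 4.30 ± 0.27 (limma adjusted p = 0.0008) and 4.03 (adjusted p = 0.0034). Clk4 followed, from 27.2 and 16.2 to 218 and 287 with DMSO (3.51) and from 27.8 and 44.5 to 467 and 502 with 4OHT (3.75). It encodes a kinase of SR proteins, and BC049762 overlaps its annotated span. Tra2b, an SR-like activator of exon inclusion, went from 282 and 366 to 2700 and 3390 with DMSO (3.23) and from 529 and 1024 to 4333 and 5145 with 4OHT (2.68). The next log2 changes with DMSO were those of Zfc3h1 (2.98) and Clp1 (2.8).

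At the other end, Cpsf1, the largest CPSF subunit, went from 96.6 and 72.7 at 0 min to 59.5 and 60.8 at 8 min with DMSO, a log2 change of -0.47 that did not pass (limma adjusted p = 0.144). With 4OHT it went from 180 and 140 to 84.2 and 100.3, and this decrease of -0.78 passed narrowly (limma adjusted p = 0.0492). edgeR, the replicate block, the robust trend and the fits without a trend or without the filter did not call it. On the deposited scale Cpsf1 was called higher with 4OHT instead (1.72, limma adjusted p = 0.0284). Srsf9 went from 68.0 and 43.7 to 38.2 and 44.8 with DMSO (-0.39) and from 166 and 58.0 to 69.1 and 66.8 with 4OHT (-0.53), and its groups overlapped. Gatc overlaps Srsf9 and Adck5 overlaps Cpsf1 in the annotation. Ddx39b went from 226 and 216 to 185 and 207 with DMSO (-0.18), and Wdr33 from 613 and 1028 to 600.3 and 607 with 4OHT (-0.40), and neither passed.

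**Figure D4:**
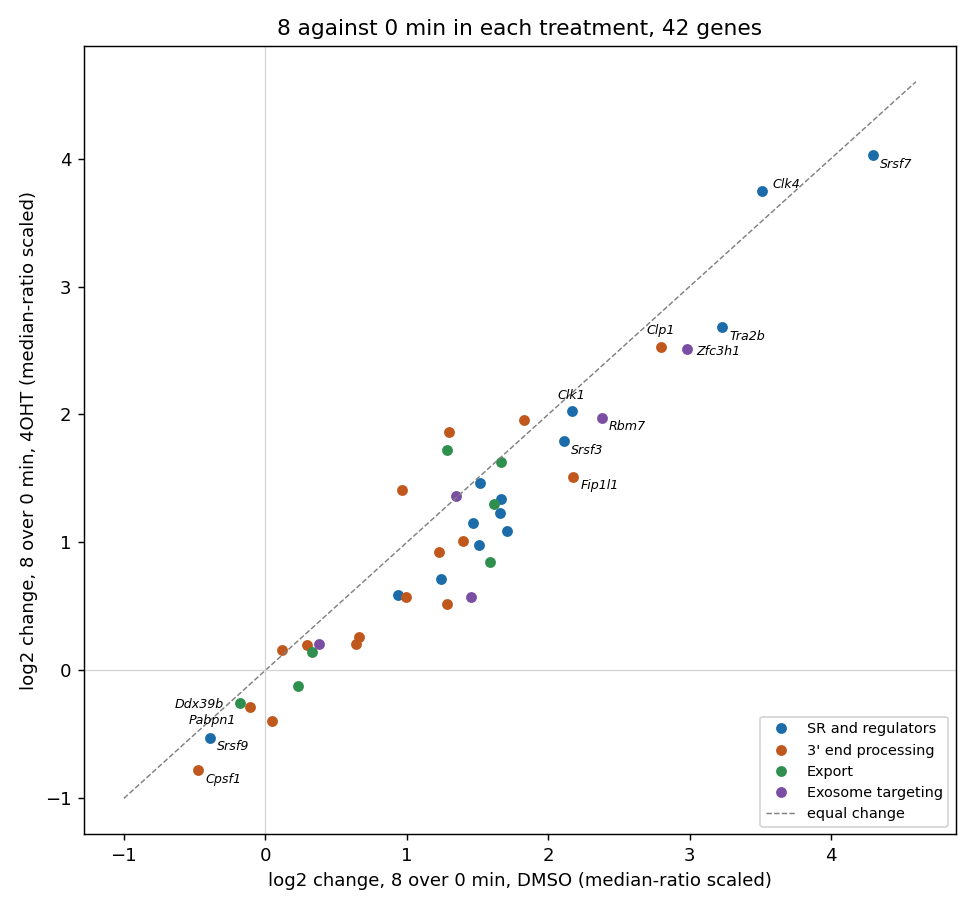
Log2 change from 0 to 8 min of labelling with DMSO (x axis) and with 4OHT (y axis), median-ratio scaled, for the 42 genes coloured by role; the dashed line marks equal changes and genes above 2 or below 0 with DMSO are named. Srsf7 lies highest in both at 4.30 and 4.03, and Cpsf1 lowest at -0.47 and -0.78.

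The promoters of these genes were read for short sequence motifs. In the RefSeq promoter table (GRCm38.p6, 250 bases before to 50 after the annotated start), 38 of the 42 genes matched; Clk1, Cpsf1, Thoc1 and Wdr33 did not. The 120 bases before the start are shown for the genes of largest change from 0 to 8 min, for 2 of those of smallest change, and for the genes of largest decrease and increase with 4OHT at 8 min. Capitals mark, on either strand, the GC box GGGCGG, the CRE TGACGTCA and the ETS motif CCGGAAG. In order they lie at chr17:80207306-80207425 (minus strand), chr11:51262994-51263113 (plus), chr16:22266006-22266125 (minus), chr5:115327057-115327176 (plus), chr17:35241626-35241745 (plus), chr4:135855951-135856070 (plus) and chr12:105784577-105784696 (plus).
Srsf7: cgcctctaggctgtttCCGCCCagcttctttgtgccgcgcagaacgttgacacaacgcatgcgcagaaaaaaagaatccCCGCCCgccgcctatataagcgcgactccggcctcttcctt
Clk4: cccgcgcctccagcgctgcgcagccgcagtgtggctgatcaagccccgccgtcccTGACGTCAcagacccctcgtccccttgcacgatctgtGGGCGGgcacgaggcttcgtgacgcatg
Tra2b: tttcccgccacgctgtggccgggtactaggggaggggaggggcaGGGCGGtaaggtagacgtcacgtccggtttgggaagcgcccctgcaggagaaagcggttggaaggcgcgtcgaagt
Srsf9: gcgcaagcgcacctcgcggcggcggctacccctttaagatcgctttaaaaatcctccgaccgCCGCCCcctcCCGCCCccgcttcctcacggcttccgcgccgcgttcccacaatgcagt
Ddx39b: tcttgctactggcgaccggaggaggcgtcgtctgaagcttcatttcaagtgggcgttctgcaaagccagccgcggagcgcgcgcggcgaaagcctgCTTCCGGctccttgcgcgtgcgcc
Srsf10: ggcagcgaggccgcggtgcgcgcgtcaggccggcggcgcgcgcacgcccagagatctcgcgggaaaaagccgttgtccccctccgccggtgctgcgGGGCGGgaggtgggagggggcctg
Papola: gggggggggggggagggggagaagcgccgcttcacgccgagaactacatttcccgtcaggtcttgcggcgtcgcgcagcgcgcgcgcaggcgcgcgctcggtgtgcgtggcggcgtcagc
The GC box stood in Srsf7 and Srsf9, which had the largest and smallest change from 0 to 8 min among the genes with a promoter entry. It also stood in Clk4, Tra2b and Srsf10, and none of the 3 motifs stood in the shown bases of Papola.

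Over the 300 bases, GGGCGG was found on either strand in 71.05% of the 38 promoters and in 35.92% of the 27025 promoters of the table (1 per gene, at its most upstream start). CCGGAAG was found in 34.21% and 9.136%, and TGACGT, the first part of the CRE, in 28.95% and 7.589%. The whole CRE TGACGTCA, which contains TGACGT on both strands, was found in 5.263% (Tra2a and Clk4) and 1.854%. CCAAT was found in 31.58% and 38.02%, TATAAA in 7.895% (Srsf2, Srsf3 and Alyref) and 14.16%, CACGTG in 2.632% and 7.238%, and the NRF1 motif in 2.632% (Fip1l1) and 0.9806%. The median GC content was 63.5% in the 38 promoters and 52.67% in all of them. The shares describe letters in these windows only, and GC-rich motifs are found more readily in GC-rich sequence.

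The genes ranged in length from 3.412 kb (Nxt1) to 116.946 kb (Thoc2), with a median of 19.5 kb against 21.3 kb for the 17272 tested genes with a length. Across the 42 genes, which share their libraries, Spearman's rho of length with the log2 fold change at 8 min was 0.31, and across all genes 0.17. In the 11 genes under 10 kb the median log2 fold change was -0.22, and in the 20 of 10 to 30 kb it was -0.20. It was -0.08 in the 9 genes of 30 to 100 kb. All genes of these classes had medians of -0.11, 0.02 and 0.11. For the change from 0 to 8 min with DMSO, medians were 1.51, 1.4 and 1.29 in the 42 genes by the same classes, and -0.24, 0.52 and 0.14 in all genes. With 4OHT they were 0.98, 1.20 and 1.41, against -0.31, 0.51 and 0.22. In the 2 genes of 100 kb or more the median at 8 min was -0.0068. From 0 to 8 min it was 0.14 with DMSO and -0.26 with 4OHT. All genes of that class had medians of 0.09, -0.41 and -0.43, in the same order. Spearman's rho of length with the change from 0 to 8 min was -0.14 with DMSO and -0.01 with 4OHT in the 42 genes. Across all genes it was 0.02 in either treatment.

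At 0 min none of the 42 genes passed between 4OHT and DMSO, as none of the 20628 did (0%). At an unadjusted p under 0.05 limma, edgeR and DESeq2 found 0 of the 42 and 231, 145 and 272 of all genes, with 0 adjusted calls by each. Log2 fold changes of the 42 ran from -0.47 (Cpsf3) to 0.50 (Cstf1), with a median of 0.01. Srsf10 read 279 and 339 with DMSO and 267 and 319 with 4OHT, and Papola 147 and 166 with DMSO and 135 and 145 with 4OHT. Srsf10 overlapped between groups, while both Papola libraries with 4OHT were lower, the opposite side to 8 min.

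The difference of the 4OHT effects at 8 and 0 min was fitted over all 8 libraries. None of the 42 genes passed by limma, edgeR or DESeq2 (2, 1 and 2 at an unadjusted p under 0.05). Of all genes limma called 0 (0%), edgeR 0 and DESeq2 165. Estimates ran from -0.87 (Exosc10) to 0.56 (Cpsf3), with a median of -0.30 against -0.08 for all genes. It was -0.60 for Srsf10 and 0.46 for Papola. An effect of 4OHT found at 8 min is therefore not shown to differ from that at 0 min.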

How the data were processed

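4sU-labelled RNA of 8 libraries was measured. The authors deposited 1 table of signal values; per the submitters' processing notes bcl2fastq, STAR 2.7 and Bowtie2 were used, with no role given. What reads were counted (exons or whole genes), strand handling and the divisor's meaning are not given in the sources used here. Multiplied by 1 divisor for its library (8.095 to 29.49), each deposited signal value gave whole reads, within 0.01, for 99.9949% to 100% of entries. Of all reads, 20.1% to 31.6% lay on entries that are not genes, which stayed out of the tests.

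Columns without 4OHT in their name were taken as DMSO. Log2(scaled value + 1), after median-ratio scaling, was fitted with limma 3.58.1 (R 4.3.3; two-sided tests, with empirical Bayes and a variance trend), on the 4 libraries of a comparison or, for the difference, on all 8; a fold change on this scale understates that of low genes. P-values were adjusted by Benjamini-Hochberg over 20628 genes. Each deposited signal was also turned back into reads for edgeR 4.0.16 and DESeq2 1.42.0. The script was tested on simulated data. The genes, lists, scaling and tests were chosen with earlier results of these data known.

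Values in each library are given for up to 6 genes per role past the threshold at 8 min, the gene nearest no change in each role, Srsf3, Srsf7, Srsf10, Nxf1, Alyref, Cpsf6 and Nudt21, and for the 3 largest and 3 smallest changes from 0 to 8 min; of other lists, 3 genes of smallest p. Exosc9, the ratio pairs, and Srsf10 and Papola at 0 min were chosen after their values were seen. Alternatives were the deposited scale, a pseudocount of 0.5 or 5, filters at 100 or none, quantile normalization, all 8 libraries, no trend, a robust trend, a replicate block, leaving out each library and, added after seeing the data, spike-in scaling at 8 min. Reads are not independent molecules.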

Additional observations from a re-analysis of the deposited data

How the results depend on the processing

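At 8 min the 10 lower genes and Papola were called alike with pseudocounts of 0.5 and 5, quantile normalization, the robust trend, edgeR and DESeq2. A minimum of 100 added Cstf2, Fip1l1 and Clp1 (13 lower, against 20.5% of all genes). In fits of all 8 libraries, with no filter, with no trend and with spike-in scaling, 0 were lower and 0 higher; on the deposited scale 0 were lower and 16 higher. Leaving out a library gave 2 to 15 lower and 0 to 1 higher. The log2 fold change of Ythdc1 with 4OHT at 8 min was -0.61 in all 8 libraries, -0.51 with no filter, -0.53 with no trend and -0.41 with spike-in scaling (adjusted p 0.465, 0.181, 0.0885 and 1), 0.93 on the deposited scale (adjusted p 0.215), and -0.68 to -0.39 leaving out a library. Of all genes, 2 were higher and 29 lower at 8 min in fits of all 8 libraries, against 3831 and 3447.

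Among genes called in either fit, the sign at 8 min turned on the deposited scale for Srsf1 (1.06), Srsf2 (1.13), Srsf9 (1.33), Srsf10 (0.88), Srsf11 (0.98), Cpsf6 (1.08), Cpsf7 (1.09), Pabpn1 (1.08), Nxf1 (1.12), Nxt1 (0.96), Alyref (1.39), Thoc2 (1.45), Zcchc8 (1.4) and Exosc10 (1.07), each below the median gene's 1.43 except Thoc2. From 0 to 8 min with 4OHT it turned for Srsf9 (1.97), Cpsf1 (1.72), Wdr33 (2.12), Pabpn1 (2.21), Thoc2 (2.39) and Ddx39b (2.26), where the median gene was at 2.49. These shifts follow from the scale. Without 4OHT 0 min number 1 it turned for Cstf3 (-0.45) and Pcf11 (-0.30), which were at 0.80 and 0.76 without number 2. The cause of the other changes was not tested.

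From 0 to 8 min with 4OHT, 42 genes rose on the deposited scale, and 0 to 31 leaving out a library. The 1 lower gene with 4OHT became 0 on the deposited scale, with no filter, with no trend, with the robust trend, with the replicate block and with edgeR. Of all genes those fits called 0.591%, 7.44%, 24.3%, 24.9%, 27.6% and 25.2% lower, in that order. With a minimum of 100 there were 3 lower genes, against 29.2% of all genes. With DMSO, that minimum called 31.3% of all genes lower, and the minimum of 10 called 26.1% lower. With DMSO, 0 to 33 rose and 0 to 2 fell leaving out a library, and 3 fell with a minimum of 100.

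The columns' numbers were not shown to pair the libraries: with 2 pairs a comparison, deviations of equal numbers correlated by 0.09 at 8 min, 0.47 at 0 min, and 0.15 and 0.02 for the change with time in DMSO and 4OHT. With the replicate block 11 genes were lower at 8 min (Fip1l1 added) and 1 higher. Within each number, the 10 lower genes and Papola kept their sign. Since their groups did not overlap, this was fixed in advance and adds no support. Precision is limited by 2 libraries a group.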
